A study of Homo sapiens with 4 samples.

Results

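Integrins, laminins and the receptors that tie cells to the basement membrane were followed in H1 human embryonic stem cells with and without MEK5DD. Members were chosen by gene symbol: the integrin alpha and beta chains, the laminin alpha, beta and gamma chains, syndecans, glypicans and nidogens, together with HSPG2, AGRN, DAG1, VTN, ILK, PTK2, PXN, CD44, CD47 and CD151. Of 17472 genes listed in the table of normalised read counts, 46 were members, and all 46 were among the 15721 genes with enough reads to be tested. Another 14 symbols of the annotation that fit the rule (ITGA8, ITGA10, ITGAD, ITGAL, ITGAM, ITGAX, ITGB2, ITGB3, ITGB6, ITGB7, LAMB3, LAMB4, GPC5 and VTN) are not listed in the table and were not analysed here.

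H1 cells are an established embryonic stem cell line of human origin. The 2 WT libraries are unmodified H1 cells. The 2 MEK5DD libraries are H1 cells transduced with lentivirus carrying MAP2K5 (MEK5) with 2 residues changed to aspartate. These cells were then selected with puromycin, and the labels describe 1 such line. All 4 were grown in E8, a defined medium that contains FGF2 and TGF-beta, with antibiotics, and poly(A) RNA was sequenced as paired-end reads. No library comes from cells given lentivirus and puromycin without MEK5DD, so MEK5DD cannot be told apart from virus delivery, drug selection or properties of the subline. The labels do not say that replicates were separate cultures, so p-values rest on a spread among 4 libraries that may be technical.

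Integrins are membrane receptors built of 1 alpha and 1 beta chain, and the pair decides which matrix protein is bound. Laminins are trimers of an alpha, a beta and a gamma chain that polymerise into the basement membrane sheet, which nidogens, perlecan (HSPG2) and agrin link to its collagen IV network and to cells. Syndecans and glypicans carry heparan sulfate chains at the cell surface and hold matrix proteins and growth factors there. Human pluripotent stem cells are commonly grown on laminin or vitronectin, which they grip through integrins.

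The libraries held 14908486 to 17628945 recovered reads. MAP2K5 had a normalised read count of 344 and 315 in WT and 3382 and 3558 in MEK5DD (10.5-fold, adjusted p = 5.91e-11), as the labels require. Of 11 pluripotency markers all were listed, with a summed count of 164506 to 166756 in WT and 159270 to 167361 in MEK5DD. In this list 1 marker was called higher (NANOG, 1.20-fold) and 1 lower (SOX2, 1.15-fold). Replicate counts lay farther apart in MEK5DD than in WT, with a chi-square per degree of freedom of 6.11 against 1.88. Among other cell types, summed fibroblast marker counts were 7427 to 7533 in WT and 8913 to 9251 in MEK5DD, with 3 of 6 tested markers higher (TAGLN, COL1A1 and COL1A2) and the defining markers DCN, LUM and COL3A1 not listed. Summed endothelial marker counts were 31.2 to 34.4 and 76.7 to 81.8, with PECAM1 and CDH5 not listed. Summed leukocyte and platelet marker counts were 105 to 113 and 136 to 141, with PTPRC not listed. Endoderm marker counts summed to 39.6 to 45.8 and 32.7 to 34.9, with 3 of 8 listed and SOX17 and FOXA2 not listed. Of those listed, GATA4 rose 3.12-fold from a low level, with counts of 3.52 and 5.21 in WT (adjusted p = 0.0456). Only in the 2 MEK5DD libraries did GATA4 reach the value of 10 required for testing. It was thus tested only because it was high there, and its p-value cannot be read as a fair test of the rise. Of 6 tested neuroectoderm markers 5 were lower, among them SIX6 (6.60-fold), SOX1 (5.31-fold) and MAP2 (4.37-fold), and NES was 1.27-fold higher; as NES held most of their counts, the sum was 8070 to 8271 in WT and 8178 to 8697 in MEK5DD. Trophoblast and amnion marker counts summed to 461 to 479 in WT and 309 to 314 in MEK5DD, with GABRP and KRT7 lower and GATA3 higher. Summed counts were 2816 to 2908 in WT and 5604 to 5863 in MEK5DD for primitive streak and mesoderm markers, nearly all of it from the receptor gene KDR. Of 4 tested markers in this list, 2 were called higher, KDR and MIXL1 (1.97-fold, adjusted p = 0.0012). EOMES (log2 change 1.19, SE 0.40) and TBX6 (log2 change -0.28, SE 0.30) were not called. In these bulk samples fewer cells of a type and less RNA per cell cannot be told apart, and the part of such cells in the results below was not tested.

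Most members were not called, and most of those called rose. With limma on log2(value + 1) and p-values adjusted over all genes tested, 16 of 46 members were called (adjusted p under 0.05), of which 13 rose and 3 fell in MEK5DD. The 16 called are 34.8% of the members, against 14.2% of all genes tested. The higher calls were 28.3% of the members against 7.69% of all genes, and the lower calls 6.52% against 6.47%. After quantile normalisation 12 rose and 5 fell. Leaving out either WT library gave fewer calls among the members and over all genes tested, and leaving out either MEK5DD library gave more of both. Members had more reads than most genes (median level 619 against 293), and among genes at or above the members' median level 17.5% were called. The median log2 change was 0.01 over the members and -0.00 over all genes tested. The groups did not overlap in 27 members (58.7%), against 56.2% of all genes. CD44, LAMA3 and LAMC3 were among the members called with a change of at least 2-fold, which 2.44% of all genes tested reached.

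**Figure D1:**
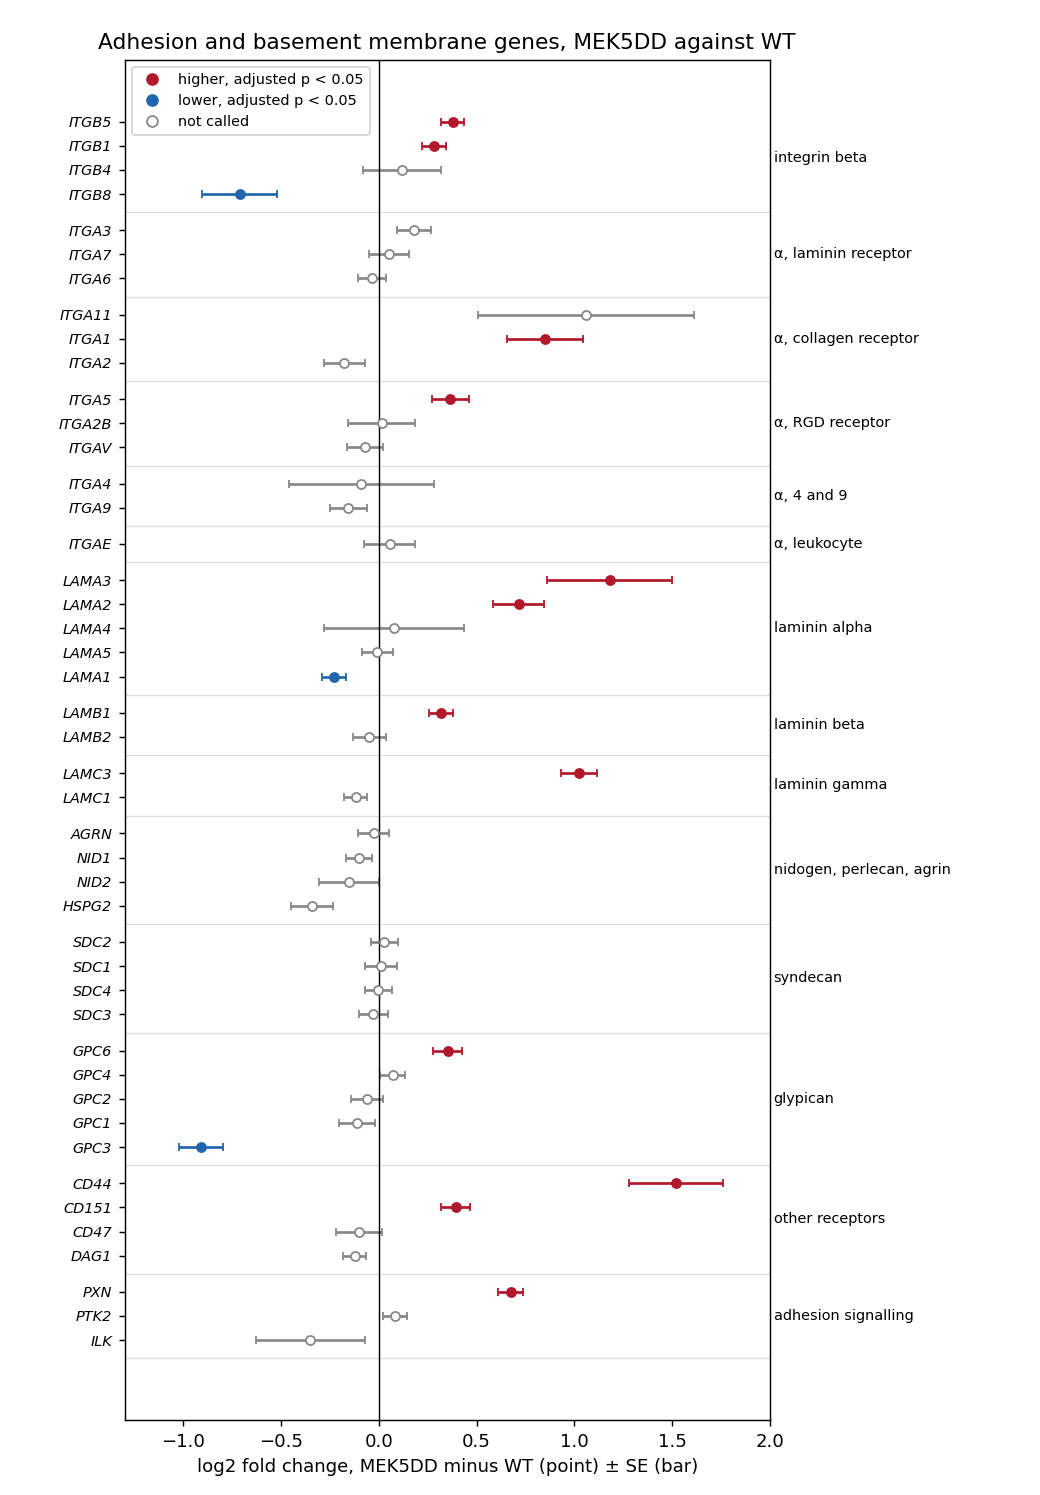
Log2 fold change of 45 members, MEK5DD minus WT (x axis), with its standard error as a bar, grouped by role. Filled points were called (12 in red rose, 3 in blue fell) and open points were not; CD44, LAMA3 and LAMC3 lie farthest right and GPC3 farthest left among the called genes shown.

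Promoter sequences are given for the called members with an absolute log2 change over 0.7 and 1 entry in the RefSeq promoter table (GRCh38.p14), so that the sequence next to the starts of genes that moved can be read. Each is the 250 bases before the start that RefSeq gives, 5′ to 3′ on the gene's strand. Capitals mark 2 motifs searched on both strands: TGANTCA, which AP-1 factors bind, and GGGCGG, the GC box bound by SP and KLF factors. A GC box on the other strand reads CCGCCC. The windows lie at chr18:23872770-23873019 (LAMA3), chr6:128882888-128883137 (LAMA2), chr11:35138921-35139170 (CD44), chr5:52787666-52787915 (ITGA1) and chr7:20330650-20330899 (ITGB8), all on the plus strand.
LAMA3: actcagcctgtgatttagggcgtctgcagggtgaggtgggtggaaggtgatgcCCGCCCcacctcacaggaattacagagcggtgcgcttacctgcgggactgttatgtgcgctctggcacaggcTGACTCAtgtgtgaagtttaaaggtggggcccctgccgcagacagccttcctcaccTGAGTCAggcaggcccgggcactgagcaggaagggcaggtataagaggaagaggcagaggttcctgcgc
LAMA2: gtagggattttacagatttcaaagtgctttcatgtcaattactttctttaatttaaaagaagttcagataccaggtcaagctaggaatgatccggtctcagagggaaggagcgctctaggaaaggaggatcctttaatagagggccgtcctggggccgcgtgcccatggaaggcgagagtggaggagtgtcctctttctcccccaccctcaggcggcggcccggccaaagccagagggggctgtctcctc
CD44: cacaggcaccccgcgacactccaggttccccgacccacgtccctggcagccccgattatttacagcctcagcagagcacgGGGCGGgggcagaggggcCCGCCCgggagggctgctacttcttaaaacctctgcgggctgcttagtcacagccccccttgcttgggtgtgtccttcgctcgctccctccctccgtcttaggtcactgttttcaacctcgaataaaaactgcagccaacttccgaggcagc
ITGA1: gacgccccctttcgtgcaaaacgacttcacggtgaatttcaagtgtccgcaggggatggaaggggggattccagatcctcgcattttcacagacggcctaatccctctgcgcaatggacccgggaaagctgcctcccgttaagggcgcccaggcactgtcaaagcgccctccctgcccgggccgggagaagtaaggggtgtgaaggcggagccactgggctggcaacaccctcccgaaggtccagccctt
ITGB8: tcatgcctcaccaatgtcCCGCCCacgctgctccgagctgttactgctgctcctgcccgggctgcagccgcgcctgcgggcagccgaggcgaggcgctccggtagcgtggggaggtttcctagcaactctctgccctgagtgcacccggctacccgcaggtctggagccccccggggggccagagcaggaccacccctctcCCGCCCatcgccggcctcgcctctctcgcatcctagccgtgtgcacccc

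RefSeq windows were found for 34 of the 46 members (42 windows, as some genes have several). The 12 members without a window, among them the called genes LAMC3, GPC3, CD151 and LAMA1, were not searched. Among those searched, LAMA3 was the 1 member with an AP-1 match, holding 2 of them. Thus 1 of 42 member windows (2.38%) has the motif, against 6.57% of 35116 windows of all genes. The GC box occurred in 28 of the 42 windows (66.7%), against 42.6% of all windows. Among windows of called members the shares were 1 of 15 (6.67%) for AP-1 and 9 of 15 (60.0%) for the GC box. The LAMA3 window lies before an internal start, far downstream of the gene's first start at 23689443. The CD44 window lies wholly after the first GENCODE start of that gene (35138870). The ITGB8 and ITGA1 windows span the first starts of those genes (20330702 and 52787896). Gene-level counts do not show which start was used. The motifs were chosen after the fold changes were known, and a match is a description of the letters only.

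Among the laminin gamma chains, LAMC3 rose while LAMC1, the gamma chain of most laminins, did not pass the test. LAMC3, a gamma chain found in nerve, retina and other tissues, had counts of 381 and 351 in WT and 770 and 723 in MEK5DD, 2.04-fold higher (log2 change 1.03, SE 0.09, adjusted p = 1.76e-05). Each MEK5DD library stood well above each WT library. LAMC1 had counts of 5702 and 5572 in WT and 5081 and 5310 in MEK5DD (log2 change -0.12, SE 0.06, adjusted p = 0.223). It was called as lower after quantile normalisation (adjusted p = 0.0427), and its log2 change was -0.15 without MEK5DD replicate 2. Per kilobase of exon, LAMC1 stood far above LAMC3 in WT (671 against 48.2) and in MEK5DD (618 against 98.3).

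The laminin alpha chains, which carry the main receptor-binding domains, moved in both directions. LAMA1, the alpha chain of the early embryonic laminin, had counts of 3945 and 3937 in WT and 3336 and 3388 in MEK5DD, 1.17-fold lower (adjusted p = 0.0243). LAMA2, the alpha chain of muscle and nerve basement membranes, had counts of 210 and 182 in WT and 290 and 357 in MEK5DD. This was a 1.64-fold rise (log2 change 0.72, SE 0.13, adjusted p = 0.00342), with the higher MEK5DD library well above the other. LAMA3, an alpha chain of epithelial basement membranes, was near the bottom of the measured range, with counts of 14.1 and 12.5 in WT and 30.9 and 31.9 in MEK5DD (2.27-fold, adjusted p = 0.0283). LAMA5, an alpha chain of many adult basement membranes, had counts of 1161 and 1272 in WT and 1164 and 1256 in MEK5DD (log2 change -0.01, SE 0.08), and LAMA4 was low in all libraries (15.4 to 23.9). Among the beta chains, LAMB1 was 1.25-fold higher, with counts of 4062 and 3948 in WT and 4969 and 5018 in MEK5DD (adjusted p = 0.00369), and LAMB2 had a log2 change of -0.05 (SE 0.08). The calls of LAMA1 (adjusted p = 0.325 and 0.321), LAMA3 (adjusted p = 0.0556 and 0.112) and LAMB1 (adjusted p = 0.0662 and 0.133) were each lost when WT replicate 1 or WT replicate 2 was left out, and that of LAMA3 also with DESeq2 (adjusted p = 0.166).

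**Figure D2:**
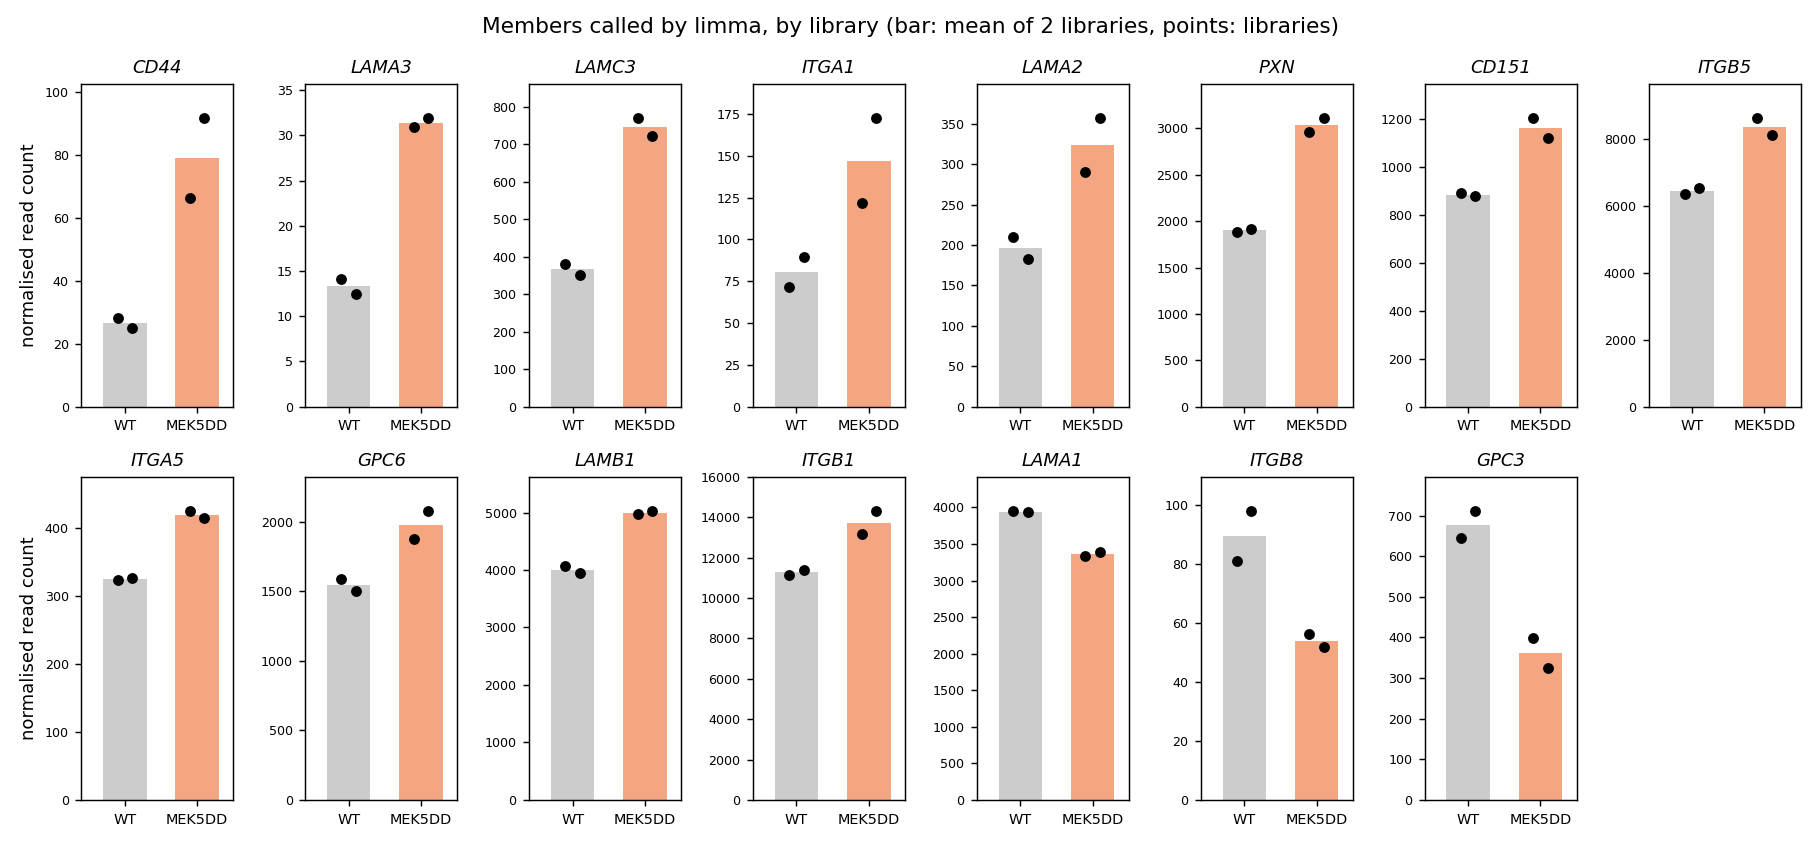
Normalised read count (y axis, from 0) of 15 called members in the WT and MEK5DD libraries, with bars at the mean of 2 libraries and points for each library, ordered by log2 change. In all 15 the WT and MEK5DD points do not overlap; the MEK5DD points of CD44 (66.3 and 91.7) and ITGA1 (122 and 172) lie far apart.

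Of the 4 integrin beta chains listed, the 2 most abundant rose and 1 fell, against 7.69% higher and 6.47% lower over all genes tested. ITGB1, the common partner of most alpha chains, had counts of 11167 and 11409 in WT and 13164 and 14294 in MEK5DD, 1.22-fold higher (log2 change 0.28, SE 0.06, adjusted p = 0.00917). ITGB5, which pairs with ITGAV to bind vitronectin, had counts of 6351 and 6529 in WT and 8628 and 8123 in MEK5DD, 1.30-fold higher (adjusted p = 0.00131). ITGB8, which pairs with ITGAV to bind and activate latent TGF-beta, had counts of 81.0 and 97.9 in WT and 56.3 and 51.8 in MEK5DD. It was 1.64-fold lower (log2 change -0.71, SE 0.19, adjusted p = 0.0279), from a level far under that of ITGB1 and ITGB5. ITGB4, the hemidesmosome chain, had counts of 69.6 and 103 in WT and 92.7 and 91.7 in MEK5DD, with overlapping groups. Per kilobase of exon the summed beta chain level was 2858 and 2933 in WT and 3546 and 3655 in MEK5DD.

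The summed level of the alpha chains per kilobase was 819 and 852 in WT and 809 and 864 in MEK5DD, with overlapping groups. ITGA6, a laminin receptor chain that pairs with ITGB1 or ITGB4, was the most abundant alpha chain and held 41.4% to 43.4% of that sum in every library. Its counts were 2267 and 2417 in WT and 2187 and 2384 in MEK5DD (log2 change -0.04, SE 0.07, adjusted p = 0.794). The other laminin receptor chains, ITGA3 (log2 change 0.18, SE 0.09, adjusted p = 0.193) and ITGA7 (0.05, SE 0.10), were not called either. ITGAV, the vitronectin receptor chain, had counts of 1311 and 1312 in WT and 1134 and 1374 in MEK5DD (adjusted p = 0.663). Its log2 change was -0.21 without MEK5DD replicate 2 and 0.07 without MEK5DD replicate 1, so its sign turned. Fits without a MEK5DD library take their spread from the WT pair, whose counts lay closer together, and they call more genes.

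Of 12 alpha chains 2 rose and 0 fell in limma, against 7.69% higher and 6.47% lower over all genes tested. The counts were 2 and 0 with edgeR, 1 and 0 with DESeq2, and 2 and 0 at an unadjusted p under 0.05. ITGA5, the fibronectin receptor chain, had counts of 324 and 326 in WT and 424 and 415 in MEK5DD, 1.29-fold higher (log2 change 0.37, SE 0.10, adjusted p = 0.0246). ITGA1, a collagen receptor chain, had counts of 71.3 and 89.6 in WT and 122 and 172 in MEK5DD, 1.80-fold higher (log2 change 0.85, SE 0.19, adjusted p = 0.0121). The neighbouring collagen receptor gene ITGA2 had counts of 368 and 379 in WT and 308 and 355 in MEK5DD (log2 change -0.18, adjusted p = 0.314). Without MEK5DD replicate 2 the log2 change of ITGA2 was -0.28. ITGA11, a collagen receptor chain of fibroblasts, was counted at 10.6 and 4.17 in WT and 22.7 and 9.97 in MEK5DD. Its groups overlapped (log2 change 1.06, adjusted p = 0.237), and the log2 change was 1.62 without MEK5DD replicate 2. ITGA9 (log2 change -0.16, SE 0.10), ITGAE (0.06, SE 0.13), ITGA2B (0.02, SE 0.17) and ITGA4 (-0.09, SE 0.37) were not called. Without WT replicate 1 and without WT replicate 2, ITGB1 (adjusted p = 0.198 and 0.129) and ITGA5 (adjusted p = 0.176 and 0.166) lost their calls, and ITGB8 did so without WT replicate 2 (adjusted p = 0.251). DESeq2 called neither ITGA5 (adjusted p = 0.108) nor ITGB8 (adjusted p = 0.144). ITGB1 was also lost after quantile normalisation (adjusted p = 0.0601).

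**Figure D3:**
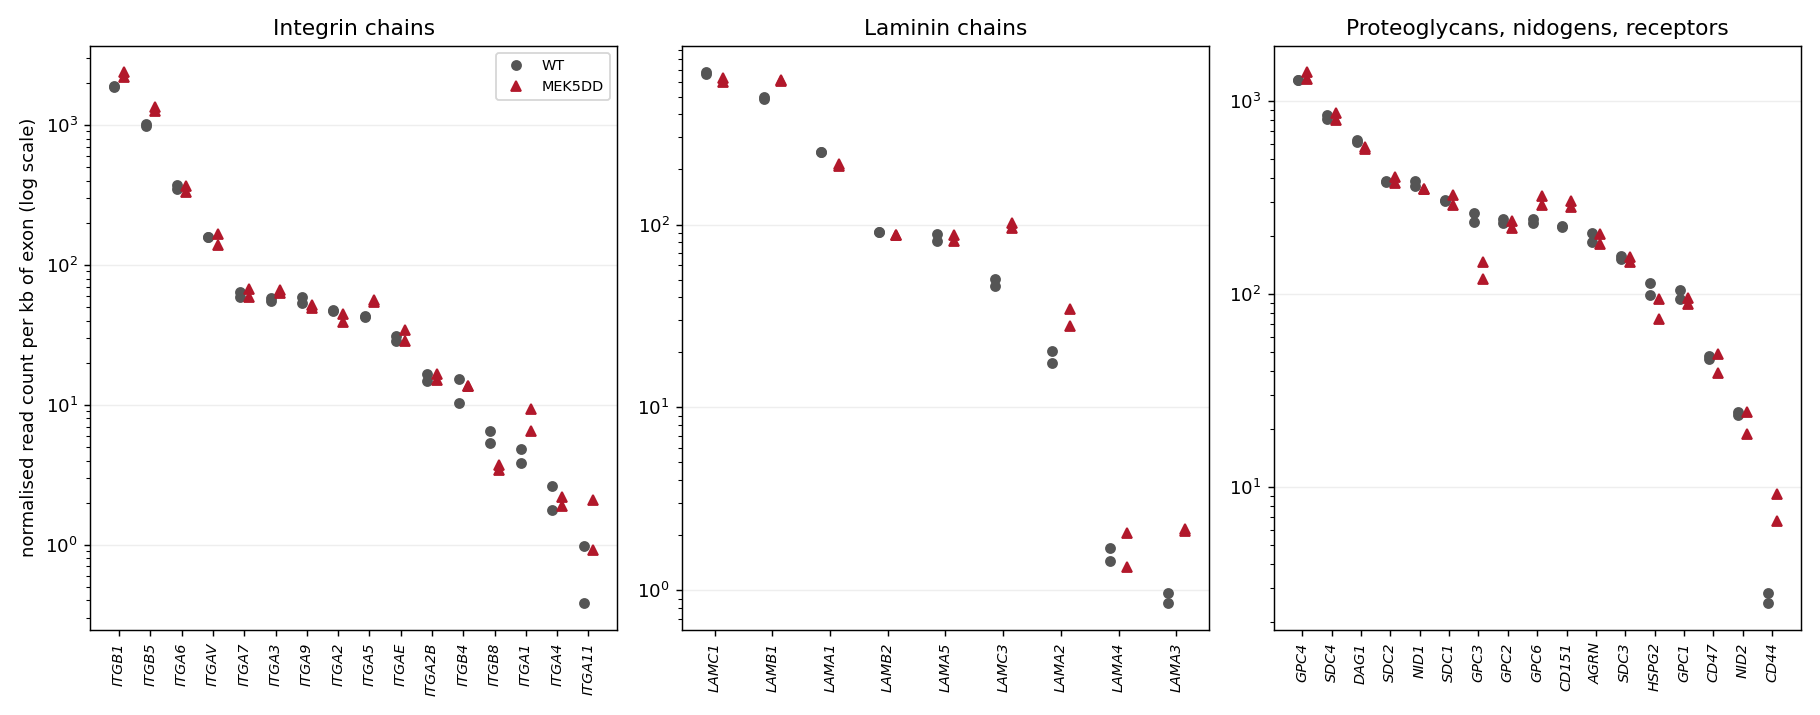
Normalised read count per kilobase of exon (y axis, log scale) of integrin chains, laminin chains and the other surface and basement membrane members, each ordered by its WT level, with circles for the WT libraries and triangles for the MEK5DD libraries. ITGB1 and ITGB5 lead the integrins, LAMC1 and LAMB1 the laminins and GPC4 and SDC4 the proteoglycans in both groups; LAMC3 and CD44 lie higher and GPC3 lower in MEK5DD.

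Ordered by WT level per kilobase of exon, the highest members were ITGB1 (1878), GPC4 (1289), ITGB5 (999), SDC4 (831), LAMC1 (671) and DAG1 (622), and the lowest were ITGA11 (0.678) and LAMA3 (0.906). LAMB1 (492) stood above LAMA1 (248), and LAMA1 held 69.4% to 70.5% of the summed alpha chain level in WT and 62.8% to 65.1% in MEK5DD. The WT libraries of some neighbours in this order overlapped, among them SDC2 (383) with NID1 (376) and ITGA3 (56.8) with ITGA9 (56.3). Exon length was summed over all annotated transcripts, so a gene with rarely used exons has a level per kilobase that is too low.

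Of 9 cell-surface heparan sulfate proteoglycan genes, 1 rose and 1 fell, both of them glypicans. Over all genes tested, 7.69% rose and 6.47% fell. GPC3, an X-linked glypican that restrains growth factor signalling and is abundant in embryonic tissue, had counts of 644 and 710 in WT and 399 and 324 in MEK5DD. It was 1.88-fold lower (log2 change -0.91, SE 0.11, adjusted p = 0.000208), the largest fall among the called members. GPC4, its neighbour on the X chromosome and the most abundant glypican, had counts of 6406 and 6377 in WT and 6988 and 6443 in MEK5DD. It was not called (log2 change 0.07, SE 0.06, adjusted p = 0.509), and its log2 change was 0.13 without MEK5DD replicate 2. GPC6 had counts of 1591 and 1504 in WT and 1880 and 2075 in MEK5DD, 1.28-fold higher (adjusted p = 0.00763; adjusted p = 0.137 without WT replicate 2). GPC1 (log2 change -0.11, SE 0.09) and GPC2 (-0.06, SE 0.08) were not called. Per kilobase, GPC3 held 11.2% and 12.4% of the summed glypican level in WT and 6.74% and 5.83% in MEK5DD. The 4 syndecans, transmembrane proteoglycans that act as co-receptors of integrins, had log2 changes from -0.03 (SDC3) to 0.03 (SDC2), each with an SE of 0.07 or 0.08, and overlapping groups (0 of 4 called in limma, edgeR and DESeq2, and 0 of 4 at an unadjusted p under 0.05).

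None of the 4 proteins that link the basement membrane was called (1 of 4, HSPG2, with edgeR and at an unadjusted p under 0.05, and 0 of 4 with DESeq2). HSPG2, which encodes perlecan, had counts of 1782 and 2070 in WT and 1342 and 1709 in MEK5DD (log2 change -0.34, SE 0.11, adjusted p = 0.0520). Its groups did not overlap, and it passed as lower in 8 of the 14 alternative fits, among them edgeR (adjusted p = 0.0484) and upper-quartile scaling (adjusted p = 0.0212). The log2 change of HSPG2 ran from -0.52 to -0.17 when 1 library was left out. NID1 (log2 change -0.10, SE 0.07), NID2 (-0.15, SE 0.15) and AGRN (-0.03, SE 0.08) were not called either. DAG1, which encodes dystroglycan, a laminin receptor outside the integrin family, had counts of 4237 and 4380 in WT and 3992 and 3914 in MEK5DD. It was not called (log2 change -0.12, SE 0.06, adjusted p = 0.204), and its log2 change was -0.14 without MEK5DD replicate 1.

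CD44, the hyaluronan receptor, had the largest change of all called members. Its counts were 28.2 and 25.0 in WT and 66.3 and 91.7 in MEK5DD, 2.87-fold higher (log2 change 1.52, SE 0.24, adjusted p = 0.00135), from a low level and with the MEK5DD libraries well apart. CD151, a tetraspanin that binds laminin-receptor integrins, had counts of 890 and 877 in WT and 1202 and 1119 in MEK5DD, 1.31-fold higher (adjusted p = 0.00485; adjusted p = 0.0634 without WT replicate 2). CD47, which associates with integrins and binds thrombospondin, had a log2 change of -0.10 (SE 0.12).

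Inside the cell, PXN rose. It encodes paxillin, a scaffold protein of focal adhesions, and had counts of 1886 and 1913 in WT and 2958 and 3110 in MEK5DD. That is 1.60-fold higher (log2 change 0.67, SE 0.06, adjusted p = 3.09e-05), with a gap between the groups much wider than that within them. PTK2, the focal adhesion kinase gene, had counts of 3254 and 3421 in WT and 3500 and 3567 in MEK5DD (log2 change 0.08, SE 0.06, adjusted p = 0.430). ILK, the integrin-linked kinase gene, was listed at 32.6 and 33.3 in WT and 22.7 and 28.9 in MEK5DD (adjusted p = 0.458). TAF10, on the opposite strand, covers 68.1% of the exon bases of ILK, and the level of ILK is uncertain because the rule for counting reads in shared bases is not stated. PXN-AS1 shares 12.3% of the exon bases of PXN and had a log2 change of 0.17 (SE 0.23), and POLR2L shares 6.53% of those of CD151 and had one of 0.24 (SE 0.09, adjusted p = 0.114). PELO shares 2.56% of the exon bases of ITGA1, and DLD shares 0.860% and AC005046.1 shares 2.71% of those of LAMB1. Other members share exon bases with genes that are not listed. Among them are NID2 (30.0%, with RTRAF), HSPG2 (11.7%, with LDLRAD2), LAMA1 (10.3%, with AP002409.1) and GPC6 (7.36%, with AL354811.1).

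LAMC3, CD44 and PXN were called under all 14 alternatives, and ITGB5, ITGA1, LAMA2 and GPC3 in every fit that left out 1 library. In GRCh38 the protein-coding genes LAMC3, CD44 and PXN span chr9:131009082-131094473, chr11:35138870-35232402 and chr12:120210439-120265771. Without the mean-variance trend, which lets low and high genes differ in their assumed spread, 5 members were called, all of them higher in MEK5DD, and LAMC3, CD44, PXN and LAMA3 were among them.

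The partners of these members were followed in 6 lists drawn up from textbook knowledge. Their counts of calls in the main fit stand beside 7.69% higher and 6.47% lower over all genes tested. These shares do not apply to counts at an unadjusted p or from other fits. Over all genes, the main fit called 2226, edgeR 2306 and DESeq2 1358. That count also fell without either WT library and grew without either MEK5DD library. Integrin adaptors and focal adhesion proteins had 10 of 30 tested genes higher and 0 lower in limma (10 and 0 with edgeR, 5 and 0 with DESeq2, 13 and 2 at an unadjusted p under 0.05), with a median log2 change of 0.13 against -0.00 over all genes tested. LIMS2, an adaptor that binds ILK, had counts of 12.3 and 13.5 in WT and 32.7 and 33.9 in MEK5DD (2.46-fold, adjusted p = 0.0171). RSU1, a partner of the LIMS adaptors, rose 1.44-fold (adjusted p = 0.00051). TGFB1I1, a relative of paxillin, rose 1.51-fold (adjusted p = 0.0498). DESeq2 did not call LIMS2 (adjusted p = 0.104), nor did limma without WT replicate 1 (adjusted p = 0.0514). TGFB1I1 lost its call in 8 of the 14 alternatives, among them each fit without 1 library (adjusted p from 0.06 to 0.181) and DESeq2 (adjusted p = 0.269). The higher count of this list was 5 when WT replicate 1 was left out and 4 when WT replicate 2 was.

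Other basement membrane components moved both ways, with 4 of 22 higher and 5 lower (median log2 change -0.09). NTN4, a laminin-related netrin, had counts of 37.9 and 40.6 in WT and 95.4 and 97.7 in MEK5DD (2.42-fold, adjusted p = 0.000974). FN1, the fibronectin gene and ligand of ITGA5 with ITGB1, fell by 0.52 on the log2 scale (SE 0.06) while ITGA5 and ITGB1 rose. FREM1 fell by 0.83 on the log2 scale (adjusted p = 0.0151; adjusted p = 0.0601 without WT replicate 2), and the elastic fibre gene FBLN5 rose 1.48-fold (adjusted p = 0.0226; adjusted p = 0.282 without WT replicate 1). Without MEK5DD replicate 2 the lower count of this list was 10, and without WT replicate 1 and WT replicate 2 the higher count was 2 and 3 and the lower count 5 and 3.

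Genes that build and edit heparan sulfate had 1 of 27 higher and 5 lower (median log2 change -0.02). The 6-O-sulfotransferase gene HS6ST2 had counts of 166 and 171 in WT and 83.6 and 72.8 in MEK5DD, a fall of 1.10 on the log2 scale (SE 0.15, adjusted p = 0.000548). SULF1 and SULF2, extracellular enzymes that remove 6-O-sulfate groups, fell by 0.58 and 0.69 on the log2 scale (adjusted p = 0.00071 and 0.000612). HS3ST3B1, which adds a rare 3-O-sulfate, rose 1.58-fold (adjusted p = 0.00135). The lower count was 3 when either WT library was left out.

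Among RGD ligands and matricellular proteins, 2 of 15 rose and 2 fell (median log2 change -0.08), and 1 rose when either WT library was left out or with DESeq2. SPP1, which encodes the integrin ligand osteopontin, had counts of 158 and 168 in WT and 539 and 487 in MEK5DD (3.14-fold, adjusted p = 1.28e-06). MFGE8, a ligand of ITGAV integrins, had counts of 6616 and 6462 in WT and 3554 and 3499 in MEK5DD, a fall of 0.89 on the log2 scale (adjusted p = 1.28e-06). The fibrillin gene FBN2 fell by 0.37 on the log2 scale (adjusted p = 0.0724 without WT replicate 2), and EDIL3, another ITGAV ligand, rose by 0.25 (adjusted p = 0.0791 with DESeq2, and 0.477 and 0.141 without WT replicate 1 and WT replicate 2).

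Tetraspanins and other lateral partners of integrins had 5 of 13 higher and 0 lower in limma (5 and 0 with edgeR, 3 and 0 with DESeq2, 5 and 3 at an unadjusted p under 0.05), with a median log2 change of 0.05. After quantile normalisation 2 were higher. CAV1, the caveolin that scaffolds membrane pits, had counts of 208 and 198 in WT and 735 and 726 in MEK5DD (3.59-fold, adjusted p = 1.94e-07). The tetraspanin genes CD81, CD9 and CD63 rose by 0.26, 0.24 and 0.24 on the log2 scale. Each of these 3 lost its call when either WT library was left out (adjusted p between 0.155 and 0.466, both from CD63), leaving 1 called gene in each of those fits. Quantile normalisation also ended the calls of CD9 (adjusted p = 0.0567) and CD63 (adjusted p = 0.077), and DESeq2 that of CD63 (adjusted p = 0.085).

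The dystroglycan list, which holds enzymes that glycosylate dystroglycan and the dystrophin complex it binds, had 2 of 22 higher and 2 lower (median log2 change -0.11). These counts were 1 and 1 with DESeq2 and when either WT library was left out, and the lower count was 4 when either MEK5DD library was left out. The dystrobrevin gene DTNA rose 1.78-fold (adjusted p = 0.00109) and the syntrophin gene SNTB1 fell by 0.58 on the log2 scale (adjusted p = 0.00554). DMD, the dystrophin gene, rose by 0.43 on the log2 scale (adjusted p = 0.0401), a call that DESeq2 did not make (adjusted p = 0.151). It was also lost when WT replicate 1, WT replicate 2 or MEK5DD replicate 2 was left out (adjusted p = 0.143, 0.148 and 0.104).

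With no mean-variance trend in the model, LIMS2, NTN4, HS6ST2, SPP1, MFGE8 and CAV1 kept their calls among the partner genes named here, and the others lost theirs.

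**Figure D4:**
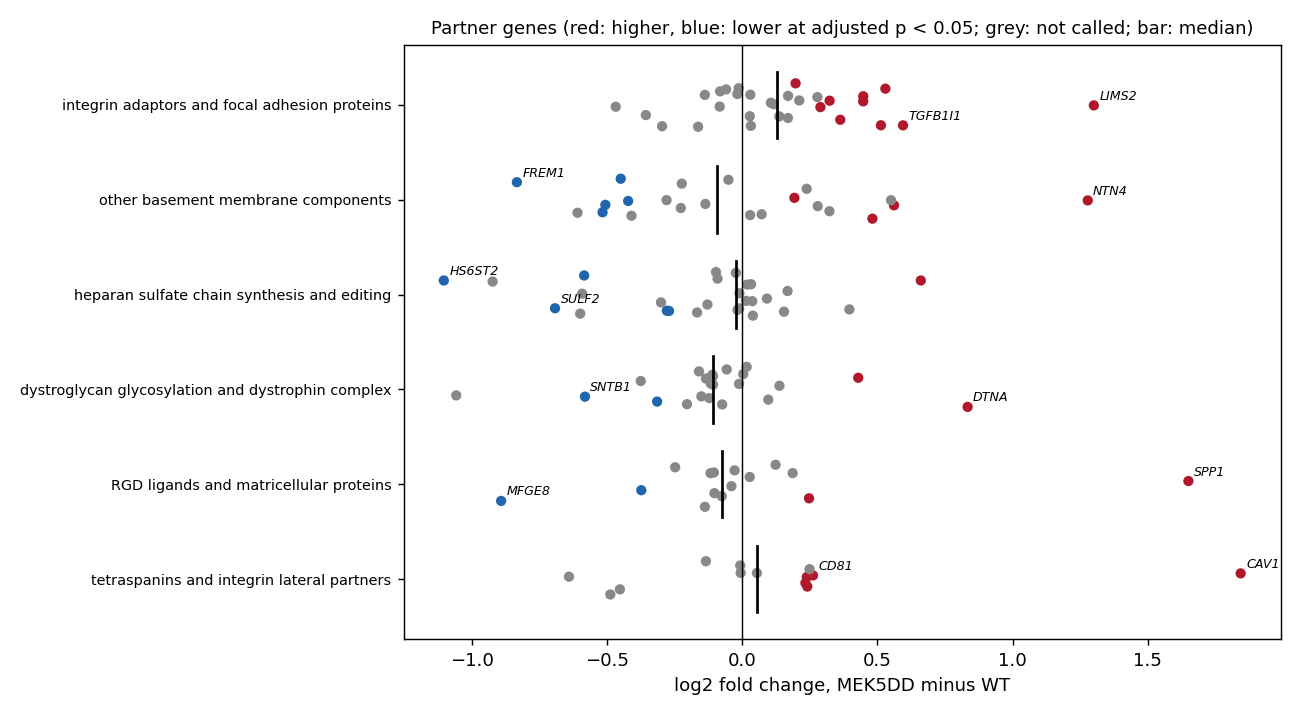
Log2 fold change, MEK5DD minus WT (x axis), of every tested gene in the 6 partner lists, with the list median as a black bar; red points were called higher, blue points lower and grey points neither, and vertical scatter within a list has no meaning. The focal adhesion list holds 10 red points and 0 blue, the heparan sulfate list 1 red and 5 blue, and SPP1 and CAV1 lie farthest right.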

How the data were processed

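RNA of 4 H1 libraries (2 WT, 2 MEK5DD) was poly(A)-selected and sequenced in pairs of reads, per the labels' protocols. The authors deposited a signal, 1 normalised gene count per library. Per the submitters' processing notes, Trimmomatic 0.36, STAR, featureCounts 1.5.3, DESeq2 1.26.0 and hg38 were used in roles that are not stated. The counting's strand setting and annotation are unknown here. In each library 100% of values were whole multiples of the smallest one, within 0.001, so dividing by it recovered reads; in MEK5DD replicate 2 it is 0.997, too close to 1 for an automatic check of the step.

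The main test was limma 3.58.1 (R 4.3.3) with a mean-variance trend on log2(value + 1). It covered 15721 genes that reached 10 in 2 or more libraries, and two-sided p-values were adjusted by the Benjamini-Hochberg method over these genes (threshold 0.05). A fold on this scale is too small for low genes. Results were recomputed with pseudocounts of 0.5 and 5, no filter, a mean of at least 50, upper-quartile and quantile scaling, no trend and a replicate block. They were also recomputed without each library (a lone library is then assumed to vary like the other group) and with edgeR 4.0.16 and DESeq2 1.42.0 on recovered reads. Coordinates, exon lengths and overlaps came from GENCODE release 29 (GRCh38), and 5 list genes were matched through older symbols.

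Members and lists were chosen with earlier results of these data known. Every member may be named, and from each partner list the 4 called genes with the largest change. One member and some partner genes are counted in the totals but not reported here.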

Additional observations from a re-analysis of the deposited data

How the results depend on the processing

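The count of all genes called (2226) was 439 without the mean-variance trend, 1358 with DESeq2 and 3349 with the replicate block, and 1160 to 4629 when 1 library was left out. The count of members called (16) was 5 without the trend and 8 to 22 when 1 library was left out, lowest without WT replicate 2. The labels give no pairing of the replicate numbers, and same-numbered libraries deviated together only weakly (r = 0.093 across 12219 genes); with the replicate block all 16 member calls were kept and 1 member was added. The block also raised the lower count of the other basement membrane list from 5 to 8 and that of the dystroglycan list from 2 to 4. Without the trend 11 calls were lost, with an adjusted p from 0.0639 (GPC3) to 0.192 (LAMA1). No called member changed sign under any alternative. The sign turned in 17 uncalled members. SDC1 was at -0.0034 with upper-quartile factors and -0.0086 after quantile normalisation. When 1 library was left out the log2 change ran from -0.105 to 0.0523 for AGRN, -0.0696 to 0.0132 for SDC3, -0.0743 to 0.0964 for SDC1, -0.0981 to 0.0262 for ITGA6, -0.355 to 0.177 for ITGA4, -0.21 to 0.0676 for ITGAV, -0.262 to 0.0579 for CD47, -0.223 to 0.376 for LAMA4, -0.124 to 0.00224 for GPC2, -0.0224 to 0.0802 for SDC2, -0.0409 to 0.144 for ITGA7, -0.337 to 0.0331 for NID2, -0.0751 to 0.186 for ITGAE, -0.0728 to 0.104 for ITGA2B, -0.16 to 0.401 for ITGB4, -0.0625 to 0.0577 for SDC4 and -0.0729 to 0.0586 for LAMA5. The cause of these moves was not tested. Members with few reads (ITGA4, ITGA11, LAMA3, LAMA4) have standard errors over 0.30, so changes of that size are not detectable there.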

Other observations

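Some members that neighbour each other in the genome differed in whether they were called. ITGA1 and ITGA2 stand in the same orientation on chromosome 5, 30.1 kb apart (GRCh38), with log2 changes of 0.85 and -0.18. GPC4 and GPC3 are 120 kb apart on the X chromosome, with log2 changes of 0.07 and -0.91. In both pairs the more abundant gene per kilobase of exon was the one that was not called. The difference within a pair was not tested.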
